A study of Homo sapiens with 5 samples.

Results

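The 10 genes described here are ZBTB43, PRR15L, LTN1, PDE9A, GLUD1, KIAA0930, MAPRE2, PPIF, RCC1L and ELAC2, out of 12165 genes measured. They were chosen from the same measurements as genes whose transcripts were most consistently lower with celastrol and that belong to none of the stress, androgen or cell cycle pathways usually followed in this setting. Their levels in celastrol and DMSO are therefore given as a description, with no test. The platform annotation names them with 18 probe sets, and all 18 are accounted for.

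LNCaP is a cell line from a human prostate cancer that responds to androgen, and celastrol is a triterpenoid from thunder god vine that acts on chaperones and stress pathways. The groups were celastrol (1.25 µM in growth medium with serum, 6 h, 2 arrays) and its solvent DMSO (6 h, 3 arrays). The cells of both groups were lysed directly in Trizol, and biotin-labelled cRNA was hybridised to Affymetrix arrays. The labels call the arrays of a group biological replicates, and 1 cell line at 1 dose and time limits what the arrays can show. The description field of the DMSO samples speaks of celastrol, so titles and the treatment protocol were followed. Levels are log2(intensity + 1), and a change is celastrol minus DMSO replicates 1 and 2 on that scale, which understates changes of dim probe sets.

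DMSO replicate 3 is shown apart because it does not have the profile of LNCaP cells. Across all probe sets it correlated with each of the other arrays at 0.843 to 0.844, whereas pairs of the other 4 reached 0.994 to 0.998. Set against the mean of DMSO replicates 1 and 2, it had 9 of 9 measured luminal prostate markers more than 2-fold down and 10 of 11 leukocyte markers more than 2-fold up. On the other 4 arrays the summed intensity of the leukocyte markers was 807 to 834 with celastrol and 885 to 886 with DMSO, against 25855 on DMSO replicate 3. Of those 11 markers 9 were among the dimmest 40% of probe sets on the 4 arrays, among them PTPRC, CD79A and CD3E. Most of the sum on these 4 arrays came from LCP1, at 9.24 and 9.28 with celastrol and 9.41 on DMSO replicates 1 and 2. Fibroblast markers summed to 245 to 247 with celastrol and 241 to 247 with DMSO, and endothelial markers to 83.1 to 86.9 with celastrol and 84.4 to 86.3 with DMSO. Luminal markers summed to 13760 to 14176 with celastrol and 14614 to 14904 with DMSO, with a median change of -0.12. Among them TMPRSS2 fell by 1.08 (limma adjusted p = 0.0387), the other 8 were not called, KLK3 and KLK2 had changes of -0.65 and -0.60, and KRT18 had 0.27. The part of these markers in the results below was not tested.

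The 10 genes do not form 1 pathway. GLUD1, PPIF, RCC1L and ELAC2 encode proteins that work in mitochondria, which oxidise fuels, hold their own small genome and must process and translate its transcripts. ZBTB43 and LTN1 act on gene expression, ZBTB43 as a BTB-domain zinc finger transcription factor and LTN1, also called listerin, as the ubiquitin ligase that marks unfinished chains on stalled ribosomes for degradation. PDE9A hydrolyses the second messenger cyclic GMP, and MAPRE2 binds the growing ends of microtubules. PRR15L and KIAA0930 are little characterised.

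With celastrol all 10 genes were lower on both arrays than on DMSO replicates 1 and 2, with changes from -0.40 for ELAC2 to -1.18 for ZBTB43. The median change was -0.71, beside -0.02 over the 8091 genes kept after the dimmest 40% of probe sets had been left out. Of those 8091 genes, 26.5% were lower on both celastrol arrays without overlap. The choice of the members fixes this count, so nothing is read from it. ZBTB43, PRR15L, LTN1 and PDE9A had changes below -1, which 0.272% of the 8091 genes had. They held places 6, 9, 10 and 14 when genes were ordered by size of fall. MAPRE2, GLUD1, RCC1L, PPIF and KIAA0930 held places 57, 65, 75, 82 and 91, and ELAC2 place 300. In whole-culture RNA, fewer cells of a kind and less transcript per cell cannot be told apart.

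**Figure D1:**
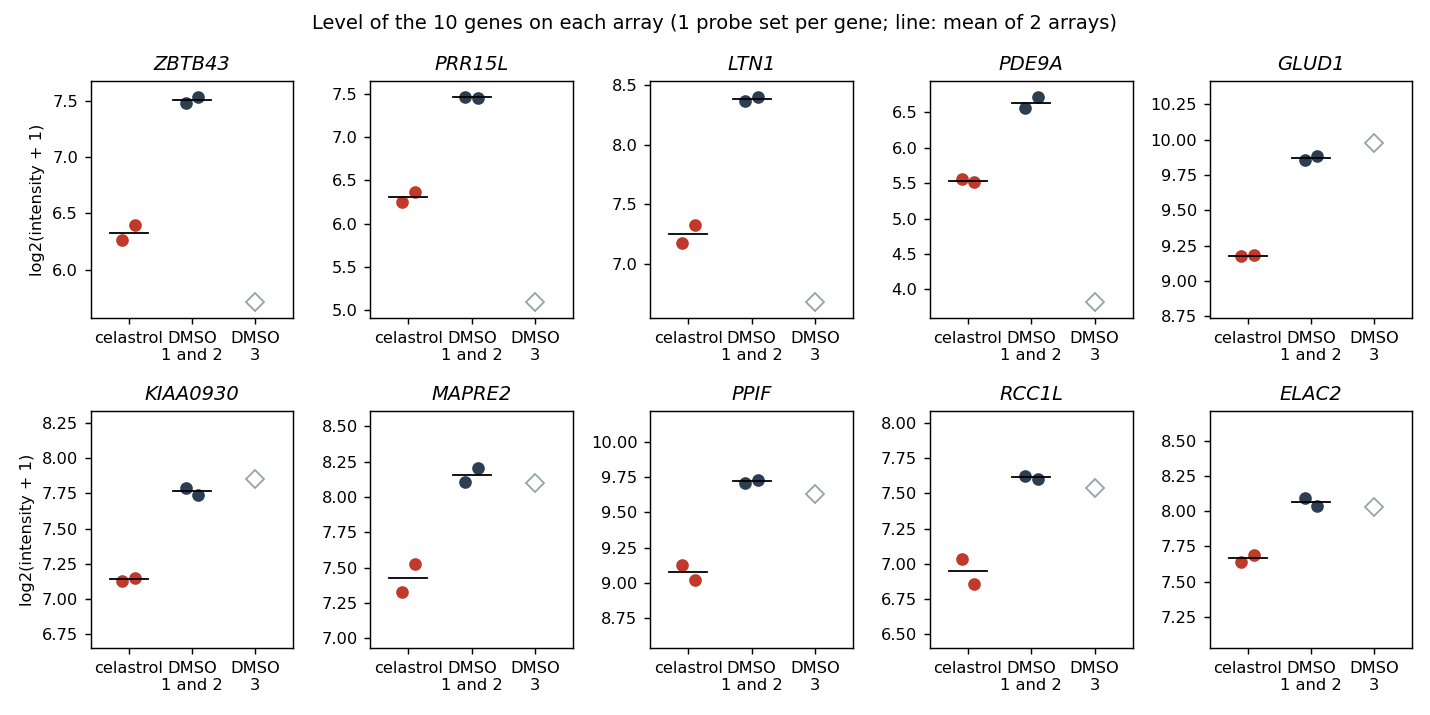
Level of each of the 10 genes, as log2(intensity + 1), on the celastrol arrays (red), DMSO replicates 1 and 2 (dark blue) and DMSO replicate 3 (open grey diamond); lines mark the mean of 2 arrays, and each panel has its own axis. Both celastrol arrays lie below DMSO replicates 1 and 2 in every panel, and DMSO replicate 3 lies below the celastrol arrays for ZBTB43, PRR15L, LTN1 and PDE9A and above them for the other genes.

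Among the mitochondrial genes, GLUD1 encodes glutamate dehydrogenase, the matrix enzyme that links glutamate to the tricarboxylic acid cycle. Its brighter probe set, 200946_x_at, stood at 9.17 and 9.19 with celastrol, against 9.86 and 9.88 with DMSO. Both celastrol arrays were below both DMSO arrays, and the arrays within each group lay close together. The change was -0.69 (SE 0.0142, n = 2 arrays a group), or 1.61-fold lower, with the smallest standard error of the 10 genes. The other probe set, 200947_s_at, read 7.66 and 7.77 with celastrol and 8.13 and 8.30 with DMSO, a change of -0.50 (SE 0.102). GLUD2, a near-identical copy of GLUD1, was not analysed here, and signal from such a copy in these probe sets cannot be told apart.

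PPIF encodes cyclophilin D, the matrix peptidyl-prolyl isomerase that sensitises the mitochondrial permeability transition to calcium. Probe set 201489_at read 9.13 and 9.02 with celastrol, against 9.71 and 9.73 with DMSO. Neither group reached into the other, and the change was -0.64 (SE 0.0533), or 1.56-fold lower. The dimmer 201490_s_at read 8.40 and 8.28 with celastrol and 9.17 and 9.28 with DMSO, a change of -0.88 (SE 0.0833). The probe sets thus gave the same direction with different sizes.

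RCC1L is a mitochondrial protein with RCC1 repeats that takes part in mitochondrial ribosome assembly and RNA modification. Its single probe set, 221247_s_at, read 7.03 and 6.86 with celastrol and 7.62 and 7.60 with DMSO. The change was -0.67 (SE 0.0888), or 1.59-fold lower, and the celastrol arrays lay farther apart than the DMSO arrays. ELAC2 is the long form of RNase Z, which trims the 3′ ends of transfer RNA precursors in nucleus and mitochondria and has been discussed as a prostate cancer susceptibility gene. Probe set 201767_s_at read 7.64 and 7.69 with celastrol, against 8.09 and 8.04 with DMSO, a change of -0.40 (SE 0.0359) or 1.32-fold lower. This was the smallest fall of the 10 genes. Its second probe set, 201766_at, was among the dimmest 40% and did not show it: both celastrol arrays read 4.33, against 4.18 and 4.27 with DMSO.

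ZBTB43 had the largest change. Probe set 204181_s_at read 6.26 and 6.40 with celastrol and 7.48 and 7.53 with DMSO, a change of -1.18 (SE 0.0720) or 2.26-fold lower. Probe set 204180_s_at behaved alike, at 5.88 and 5.82 with celastrol and 6.91 and 6.84 with DMSO, a change of -1.02 (SE 0.0461). The third, 204182_s_at, read 5.44 and 5.61 with celastrol, against 5.79 on both DMSO arrays. Its change of -0.26 (SE 0.0832) was in the same direction and much smaller, so the size of the fall of ZBTB43 depends on the probe set read. LTN1 had 1 probe set, 215596_s_at, at 7.17 and 7.33 with celastrol and 8.37 and 8.40 with DMSO. Both of its celastrol values were below those of DMSO replicates 1 and 2, with a change of -1.13 (SE 0.0799) or 2.19-fold lower.

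For PDE9A the single probe set, 205593_s_at, read 5.56 and 5.51 with celastrol and 6.55 and 6.72 with DMSO. The celastrol arrays lay well below DMSO replicates 1 and 2, with a change of -1.10 (SE 0.0839) or 2.14-fold lower. MAPRE2, the end-binding protein EB2, had 3 probe sets. The brightest, 202501_at, read 7.33 and 7.52 with celastrol and 8.10 and 8.21 with DMSO, a change of -0.73 (SE 0.112) or 1.66-fold lower, with the largest standard error of the 10 genes. The next, 213489_at, read 5.19 and 5.12 with celastrol and 5.67 and 5.52 with DMSO, a change of -0.44 (SE 0.0827). The third, 211556_at, was among the dimmest 40% and stood at 3.97 and 3.998 with celastrol, against 3.83 and 3.90 with DMSO. It is 1 of 2 probe sets of the 18 on which celastrol was higher, the other being the dim probe set of ELAC2.

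PRR15L, a small proline-rich protein, had 1 probe set, 219127_at, at 6.25 and 6.37 with celastrol. Both DMSO arrays read 7.46. The change was -1.15 (SE 0.0559), or 2.22-fold lower. KIAA0930 had 2 probe sets that gave nearly the same change. The brighter, 217118_s_at, read 7.13 and 7.15 with celastrol and 7.78 and 7.74 with DMSO, a change of -0.62 (SE 0.0238) or 1.54-fold lower. The dimmer, 212421_at, read 5.36 and 5.40 with celastrol and 5.86 and 6.07 with DMSO, a change of -0.59 (SE 0.108).

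**Figure D2:**
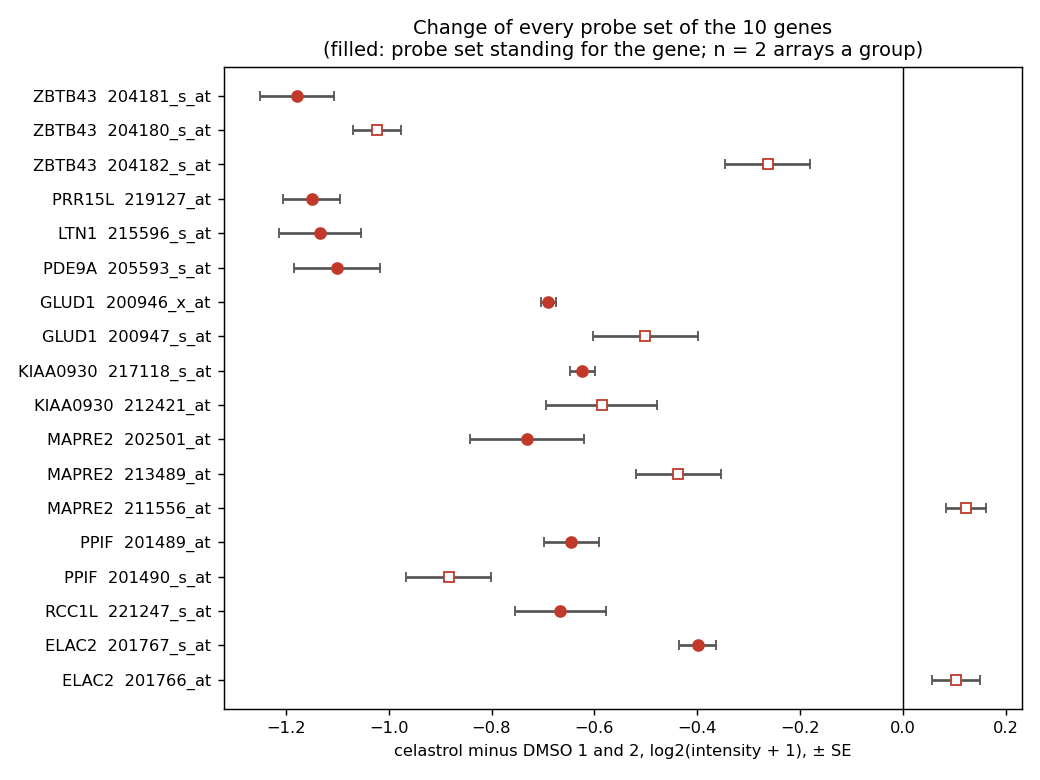
Change (celastrol minus DMSO replicates 1 and 2, log2(intensity + 1)) of all 18 probe sets of the 10 genes, with bars of 1 standard error; filled points are the probe sets with the highest mean for a gene, open squares the others. Of the 18 probe sets 16 lie below 0, and the 2 above 0 are the dim probe sets 211556_at of MAPRE2 and 201766_at of ELAC2.

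On the brightest probe set of each gene, DMSO replicate 3 split the 10 genes. For 4 of them it lay below both celastrol arrays, at 5.71 for ZBTB43 (204181_s_at), 5.09 for PRR15L, 6.68 for LTN1 and 3.82 for PDE9A. Against the mean of DMSO replicates 1 and 2 these were differences of -1.79, -2.36, -1.71 and -2.82. For the brightest probe sets of the other 6 it lay above both celastrol arrays and near the other DMSO arrays, at 9.98 for GLUD1, 7.85 for KIAA0930, 8.10 for MAPRE2, 9.63 for PPIF, 7.54 for RCC1L and 8.03 for ELAC2. Its difference from the mean of the other DMSO arrays ran from -0.09 for PPIF to 0.11 for GLUD1 among them. Second probe sets did not all follow this split. DMSO replicate 3 read 5.40 on 212421_at of KIAA0930, between the celastrol arrays, with a difference of -0.57 from the other DMSO arrays. That difference was -0.40 on 201490_s_at of PPIF and -0.31 on 213489_at of MAPRE2, and on 204182_s_at of ZBTB43 the array lay above the other DMSO arrays, at 5.88. The 6 genes had first been noticed in a fit of all 5 arrays, which favours genes whose level on this array is like that on the other DMSO arrays, so their closeness is part of how they were picked. With all 5 arrays the changes of the brightest probe sets of the 6 ran from -0.39 for ELAC2 to -0.73 for GLUD1, with standard errors of at most 0.0871. Among their other probe sets the standard error reached 0.257, on 212421_at of KIAA0930, and the dim ones of MAPRE2 and ELAC2 had changes of -0.011 and 0.02. The changes of ZBTB43, PRR15L, LTN1 and PDE9A on their brightest probe sets were -0.58, -0.36, -0.56 and -0.16, with standard errors of 0.774, 1.02, 0.736 and 1.21. Without overlap between celastrol and all 3 DMSO arrays, 6 of the 10 were lower on these probe sets, beside 10.2% of the 8091 genes.

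**Figure D3:**
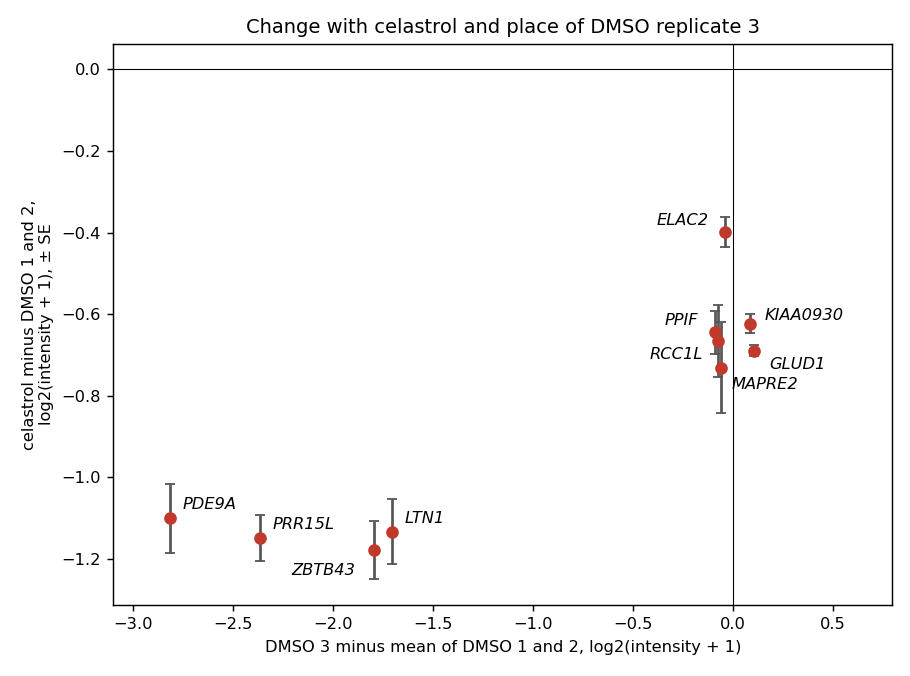
Change of each of the 10 genes with celastrol against DMSO replicates 1 and 2 (vertical axis, with bars of 1 standard error) beside the distance of DMSO replicate 3 from the mean of those arrays (horizontal axis), both in log2(intensity + 1). ZBTB43, PRR15L, LTN1 and PDE9A lie at the lower left, with DMSO replicate 3 at -1.71 or below, and the other 6 genes lie near 0 on the horizontal axis.

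The start regions of the genes were read for short motifs. RefSeq windows of 300 bases on GRCh38.p14, from 250 before to 50 after an annotated start, matched 8 of the 10 genes, with 10 windows in all because KIAA0930 and MAPRE2 have 2 each. PRR15L and PDE9A had no entry. The GC content of the 10 windows was 60.0% to 81.0%, beside a median of 58.7% over all 35116 windows. Of 11 motifs searched on both strands, CCGGAAG, the core bound by ETS-family factors, is shown. It stood in 4 of the 8 genes and was picked for its matches after the search, so its shares are a description. The GC box GGGCGG stood in 6 of these genes, GCGTG in 5 and the CCAAT box in 4. CCGGAAG was in 4 of the 10 windows, against 10.3% of all windows and 16.6% of windows of the 8091 genes. This is a match of letters, and binding was not measured. The 4 windows follow in the direction of the gene, with capitals marking CCGGAAG or its reverse complement (in ELAC2 the first matches, 1 on each strand, overlap). ZBTB43 lies at chr9:126804790-126805089 on the plus strand, LTN1 at chr21:28992828-28993127, RCC1L at chr7:75073753-75074052 and ELAC2 at chr17:13017978-13018277, these 3 on the minus strand.
ZBTB43: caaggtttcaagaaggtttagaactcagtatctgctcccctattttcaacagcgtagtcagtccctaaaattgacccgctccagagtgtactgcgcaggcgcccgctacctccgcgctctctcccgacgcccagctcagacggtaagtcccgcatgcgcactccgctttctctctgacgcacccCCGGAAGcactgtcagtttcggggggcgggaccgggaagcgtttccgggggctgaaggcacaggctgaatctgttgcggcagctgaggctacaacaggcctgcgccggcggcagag
LTN1: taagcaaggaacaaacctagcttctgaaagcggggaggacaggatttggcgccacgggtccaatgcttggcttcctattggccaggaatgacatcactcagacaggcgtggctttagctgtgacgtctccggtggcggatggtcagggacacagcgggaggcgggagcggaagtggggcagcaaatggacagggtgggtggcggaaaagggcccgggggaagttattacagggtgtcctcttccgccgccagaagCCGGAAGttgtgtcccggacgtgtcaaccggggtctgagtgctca
RCC1L: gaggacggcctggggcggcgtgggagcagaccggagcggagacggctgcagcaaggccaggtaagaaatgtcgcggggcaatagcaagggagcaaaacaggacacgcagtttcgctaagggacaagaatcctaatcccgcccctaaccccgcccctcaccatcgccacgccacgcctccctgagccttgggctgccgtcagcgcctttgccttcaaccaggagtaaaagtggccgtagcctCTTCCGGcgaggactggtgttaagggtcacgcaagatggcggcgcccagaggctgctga
ELAC2: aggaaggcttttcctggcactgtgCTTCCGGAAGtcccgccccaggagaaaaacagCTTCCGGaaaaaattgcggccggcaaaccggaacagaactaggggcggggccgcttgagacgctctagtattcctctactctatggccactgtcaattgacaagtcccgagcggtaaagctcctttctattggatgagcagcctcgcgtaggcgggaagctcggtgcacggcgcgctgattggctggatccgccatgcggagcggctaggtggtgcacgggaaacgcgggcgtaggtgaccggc

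The core lay after base 250, past the annotated start, in LTN1, where it begins at base 256 of the window, and just before the start in RCC1L, at base 242. In ZBTB43 it begins at base 185, and the ELAC2 window held 3 matches. The heat shock element core GAANNTTC, the C/EBP-ATF element TGATGNAA and the TATA box TATAAA had no match in the windows of the 8 genes, and stood in 6.77%, 3.62% and 11.5% of all windows and in 4.92%, 2.07% and 6.12% of windows of the 8091 genes. A gene counted as matched if any of its windows matched, whereas the shares are of single windows. The extra window of KIAA0930 and of MAPRE2 can therefore raise the gene counts. The antioxidant response element core TGACNNNGC matched ZBTB43, MAPRE2 and PPIF, with 13.3% of all windows and 15.03% of those of the 8091 genes. The cyclic AMP response core TGACGT, which can share its first letters with that core, matched LTN1, MAPRE2 and PPIF, with 7.98% and 11.1%. The GC box GGGCGG matched 6 genes (45.0% of all windows and 65.1% of those of the 8091 genes), GCGTG of the aryl hydrocarbon receptor 5 (36.5% and 48.6%) and the CCAAT box 4 (34.6% and 35.8%). In the same order of windows, the E-box CACGTG matched MAPRE2 (7.26% and 9.47%) and the androgen receptor half-site AGAACA matched PPIF (14.8% and 9.94%).

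Genes that work beside the 10, or resemble them, were then tested with limma, a linear model with shared variance, with p-values adjusted over the probe sets kept by the Benjamini-Hochberg method and a threshold of 0.05. On the 4 arrays it called 84 of 8091 genes, or 1.04%, 46 higher (0.569%) and 38 lower (0.47%). Of 163 tested genes in 10 related lists it called 1, PPID, and 41 had an unadjusted limma p under 0.05, which 1633 of the 8091 genes had (20.2%). No call was left, PPID included, after dropping 1 of the 4 arrays, whichever it was, although 1700 to 1840 genes then had an unadjusted limma p under 0.05. Other settings gave between 0 and 255 calls.

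Of 5 close relatives of the 10 genes that were tested, limma called 0, and 0 had an unadjusted p under 0.05. Over all 8091 genes these shares were 1.04% and 20.2%, so counts of 0 among 5 genes say little. MAPRE1 (EB1) read 9.46 and 9.36 with celastrol and 9.46 on both DMSO arrays, a change of -0.05. MAPRE3 (EB3) read 6.10 and 5.87 with celastrol and 5.60 and 5.75 with DMSO, a change of 0.30 (limma adjusted p = 0.318), on the other side of 0 from MAPRE2. Changes were -0.05 for PPIA, the cytosolic cyclophilin A, -0.02 for RCC1, the nuclear exchange factor of Ran, and -0.10 for PDE8A, a cyclic AMP phosphodiesterase. The limma adjusted p of these 5 genes ran from 0.318 to 0.678. ELAC1, the short form of RNase Z, and PDE5A were among the dimmest 40% of probe sets and were not tested, with changes of 0.01 and 0.05. PRR15, GLUD2 and ZBTB34 were not analysed here.

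Around the mitochondrial members more genes were lower than higher, by small amounts, which also held over all 8091 genes. Of 30 tested genes of mitochondrial RNA processing and expression, the list to which ELAC2 and RCC1L belong by function, none passed limma, 11 had an unadjusted limma p under 0.05, all of them lower (beside 12.5% of all 8091 genes), and 16 were lower and 0 higher without overlap of the groups. That is 53.3% lower, beside 26.5% of all 8091 genes, and 16.3% of all genes were higher. The median change of the list was -0.16, beside -0.02 over all genes. The smallest p was that of PUS1, a pseudouridine synthase, at 5.12 and 5.16 with celastrol and 5.53 and 5.55 with DMSO, a change of -0.40 (limma adjusted p = 0.0605). Among 20 genes of the mitochondrial permeability transition and calcium handling, where PPIF acts, 11 were lower and 0 higher without overlap. These are 55% and 0%, beside 26.5% and 16.3% of all genes, and the median was -0.09. Limma called 0 of the 20, and 3 were lower at an unadjusted limma p under 0.05, as were 12.5% of all genes. AFG3L2, a protease of the inner membrane, read 5.80 and 5.92 with celastrol and 6.31 on both DMSO arrays, a change of -0.45 (limma adjusted p = 0.0895).

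Among 26 enzymes and carriers of glutamate metabolism and the tricarboxylic acid cycle, the surroundings of GLUD1, 11 were lower and 1 higher without overlap, with a median of -0.11. Without overlap, 42.3% were thus lower and 3.85% higher, beside 26.5% and 16.3% of all 8091 genes. None was called by limma, and 5 had an unadjusted limma p under 0.05, 4 lower and 1 higher. Over all genes 20.2% had such a p. The gene of smallest p went the other way: GOT1, the cytosolic aspartate aminotransferase, read 9.45 and 9.40 with celastrol, against 9.05 and 8.95 with DMSO, a change of 0.42 (limma adjusted p = 0.0837). Of 12 proteins with RCC1 repeats 4 were lower and 1 higher without overlap (33.3% and 8.33%), with a median of -0.03. Limma called 0 of them, and 4 had an unadjusted limma p under 0.05. HERC6, a ubiquitin ligase, had the smallest p there, with a change of -0.38 (limma adjusted p = 0.104).

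The cyclophilins other than PPIF had changes on both sides of 0. Of 11 tested, PPID, cyclophilin 40 and a cochaperone of HSP90, rose by 0.73 (SE 0.0259, limma adjusted p = 0.0387), at 8.002 and 8.05 with celastrol and 7.29 and 7.31 with DMSO. The other 10 were not called, and 4 of the 11 had an unadjusted limma p under 0.05, beside 20.2% of all 8091 genes. The median was 0.00, with 2 lower and 3 higher without overlap. These are 18.2% and 27.3%, beside 26.5% and 16.3% of all genes. Of 15 genes of ribosome-associated quality control, in which LTN1 acts, 2 were lower and 6 higher without overlap (13.3% and 40%). Their median was 0.00, with 0 calls and 3 at an unadjusted limma p under 0.05. GTPBP2, a GTPase that helps to rescue stalled ribosomes, had the smallest p, at 7.40 and 7.49 with celastrol and 6.73 and 6.67 with DMSO, a change of 0.74 (limma adjusted p = 0.0512) that was opposite in sign to that of LTN1.

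Of 18 ZBTB factors 4 were lower and 3 higher without overlap, or 22.2% and 16.7%, beside 26.5% and 16.3% of all 8091 genes. Their median was 0.03, with 0 calls and 4 at an unadjusted limma p under 0.05, which 20.2% of all genes had. ZBTB16, also known as PLZF, read 6.60 and 6.55 with celastrol and 7.38 and 7.16 with DMSO, a change of -0.69 (limma adjusted p = 0.0947). Of the partners of PDE9A in cyclic nucleotide signalling, 12 phosphodiesterases, guanylate cyclases and cyclic GMP kinases were tested. Among these 5 were lower and 1 higher without overlap (41.7% and 8.33%), with a median of -0.06. There were 0 calls and 2 at an unadjusted limma p under 0.05. GUCY1A1, a subunit of the soluble guanylate cyclase that makes cyclic GMP, read 8.55 and 8.59 with celastrol and 9.05 and 9.13 with DMSO, a change of -0.52 (limma adjusted p = 0.0605). Of 19 microtubule plus-end proteins, the partners of MAPRE2, 3 were lower and 7 higher without overlap (15.8% and 36.8%), with a median of 0.07. Limma called 0 of them, and 5 had an unadjusted limma p under 0.05. TACC2 read 7.80 and 7.70 with celastrol and 7.17 and 7.24 with DMSO, a change of 0.54 (limma adjusted p = 0.0745). None of these lists was tested as a set, and some genes stand in more than 1 list.

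**Figure D4:**
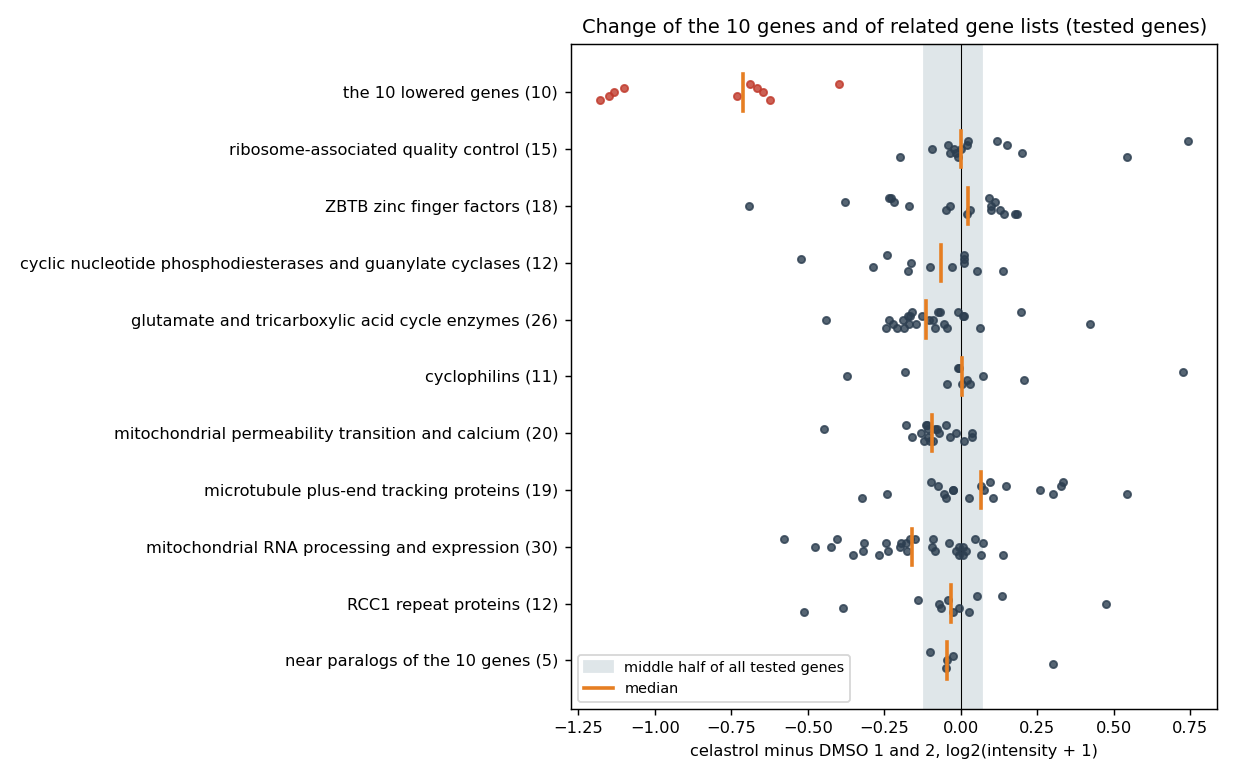
Change (celastrol minus DMSO replicates 1 and 2, log2(intensity + 1)) of the 10 genes (red) and of the tested genes of 10 related lists (dark blue), with the number of genes in brackets; orange bars are medians and the grey band spans the 25th to 75th percentile of all 8091 genes. The medians of the related lists lie between -0.16 and 0.07, against -0.71 for the 10 genes, which were picked for their fall.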

How the data were processed

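The deposited values are linear intensities, 1 for each probe set on each array. The submitters' processing notes name RMA, whose version is not stated in the sources used here. Array medians were 28.8 to 29.4 and totals 4939397 to 5348496, and any scaling after RMA is unknown. Precision is limited by the number of arrays. Of 22215 probe sets 19724 name 1 gene, 568 several and 1923 none, and a look-up by Entrez ID changed 0 symbols. A gene was read from its probe set of highest mean over the 4 arrays. Limma 3.58.1 in R 4.3.3 (lmFit, eBayes, two-sided) was run on log2(value + 1) of the 4 arrays without DMSO replicate 3. The dimmest 40% of probe sets by their mean were left out first (13329 kept). On simulated data it recovered 60.1% of probe sets changed by 0.5 and 96.6% of those changed by 1, and 4.74% of its calls were false. The simulated noise was normal with a floor on its variance, so it can differ from that of the arrays. The recovered shares need not hold there. Limma did not call IL1RN, MMP16, CITED2, TXNIP and ARID5B, with changes from -1.43 to -1.11, and called others of like size, among them SESN1 and EFNB2. An exact test of single values, 2 arrays against 2, cannot go below p = 0.333. The members and lists, and this fit, were chosen with earlier results of these data known. Named were all members, all measured close relatives, up to 3 called genes a list and direction (or the gene of smallest p), the 5 genes nearest in pattern and the largest called falls outside the members. Alternatives covered the arrays, filter, pseudocount, normalization, variance model, probe set and pairing. The labels do not say whether replicate numbers pair the arrays. The difference of replicates 1 and 2 in celastrol correlated with that in DMSO at r = -0.0197 over all probe sets. That value shows no shared shift and cannot exclude a pairing.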

Additional observations from a re-analysis of the deposited data

How the results depend on the processing

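Under other arrays, another pseudocount, other normalizations and the replicate block, the 16 lower probe sets of the members stayed below 0, in 144 of 144 values over 9 alternatives. These 16 were lower without overlap, so leaving out 1 array, the pseudocount and the replicate block could not turn their sign. Only all 5 arrays and the normalizations could have done so. With all 5 arrays the median change of the 10 genes was -0.60, 6 of 10 were lower without overlap, and the dim probe set 211556_at of MAPRE2 turned to -0.011. With 1 array left out the median lay between -0.76 and -0.68. Limma called 84 genes, but 2 with no filter, 195 with median and 255 with quantile normalization, 157 with the median of a gene's probe sets, and 0 on all 5 arrays, with the replicate block and with any 1 array left out (0 to 0). At an unadjusted limma p under 0.05 these had 274, 1350 and 1700 to 1840 genes. Among related genes the count of 1 became 0 in these cases and with no filter, 2 (PPID and GTPBP2) with the filter on all 5 arrays, log2(value + 16) or robust variance, and 5 with either normalization (also GUCY1A1, PUS1 and TACC2). With the median of probe sets it was 5 as well, with SLC25A11 and without PPID. The replicate block gave 0 calls among related genes, and whether the numbers pair the arrays is not known.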

Other observations

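Outside the 10 genes, 5 genes had levels nearest in pattern to their mean over the 4 arrays, by Euclidean distance of each gene's deviations from its own mean. They are given as a description of these 4 arrays, and most of that distance is set by the size of the fall. TDP1, which repairs DNA ends blocked by topoisomerase 1, was nearest, at 7.20 and 7.27 with celastrol and 7.99 and 8.07 with DMSO. ENDOD1 followed with a change of -0.85, CAMK2N1, an inhibitor of the kinase CaMKII, with -0.89, IGFBP3, a carrier of insulin-like growth factors, with -0.87, and CAB39L with -0.92. Since they were picked for this pattern, they get no test. On DMSO replicate 3 TDP1 read 0.37 below the mean of the other DMSO arrays, and CAMK2N1 6.77 below it.

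Among the called genes outside the members, the largest falls near theirs in size were SESN1, a regulator of mTORC1, with a change of -1.22 at place 5, EFNB2, a membrane-bound ephrin ligand, with -1.17 at place 7, and PEG3, an imprinted zinc finger gene, with -1.10 at place 15. CYP1A1, JAG1 and OPRK1 held places 1 to 3. Places 4, 8 and 11 to 13 were held by genes that limma did not call.

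The protein-coding genes on either side of each member in RefSeq order, a look added after the other results were known, were measured for 14 of 20 positions. Of the 11 tested by limma 0 were called (smallest adjusted p = 0.0605), and of these 11, 7 were lower and 1 higher without overlap, where 26.5% and 16.3% of all 8091 genes were. The changes of the 14 ran from -0.43 for ZMIZ1, beside PPIF, to 0.09 for LMX1B, beside ZBTB43. ZCCHC24, on the other side of PPIF, had a change of -0.39, and SLC37A1, beside PDE9A, -0.33. RWDD2B and HEMK2, on either side of LTN1, had -0.11 and 0.01.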
